A study of Mus musculus with 8 samples.

Results

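The lymphatic endothelial cells (LECs) described here carried Prox1 and genes such as Fxyd6 but no detected Lyve1, and 165 of the 8204 single cells deposited for 8 libraries of sorted tumour endothelial cells (ECs) belonged to them. They were chosen by their measured transcripts: at least 1 unique molecular identifier (UMI, 1 counted transcript) of Prox1, none of Lyve1, a UMI of at least 2 of the 6 genes Fxyd6, Dtx1, Nsg1, Parm1, Sema3d and Tbx1, and a UMI of fewer than 3 of Ccl20, Cyp1b1, C3, Ltb, Il33 and Ltbp2, which are high in lymph-node-sinus-like cells. Live CD45-negative CD31-positive cells were sorted from breast tumours of mice 3 h after PBS or 3'3'cGAMP was injected into the tumour. 3'3'cGAMP is a cyclic dinucleotide that activates the innate immune sensor STING. The spontaneous tumours arose in adult female mice that carry the MMTV-PyMT transgene, in which the mouse mammary tumour virus promoter drives the polyoma middle T oncogene in mammary epithelium, and the implanted tumours grew from cultured MMTV-PyMT tumour cells placed in the mammary fat pad of adult females without the transgene. Each of the 4 groups (PBS and cGAMP in spontaneous tumours, PBS and cGAMP in implanted tumours) had 2 libraries, and the methods of the study give 2 mice for each group. The labels give the strain as C57BL/6 throughout, whereas the methods name FVB mice.

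Lymphatic vessels take up fluid and immune cells through blind-ended capillaries and carry them through collecting vessels, whose valves keep the flow in one direction, to the lymph nodes. Prox1 is the transcription factor that sets and keeps lymphatic identity in ECs. Lyve1, a hyaluronan receptor, and Ccl21a, the chemokine that draws dendritic cells into lymphatics, are typical of capillaries, whereas collecting vessels and valves lose Lyve1, and Foxc2, Gata2, Nfatc1, Itga9 and the connexin gene Gja4 are needed for or enriched in valves. STING activation leads to type I interferon, which in turn raises antiviral effector genes, antigen presentation genes and chemokines in cells that sense it.

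The members numbered 7 and 9 in the spontaneous PBS libraries, 7 and 8 in spontaneous cGAMP, 48 and 42 in implanted PBS, and 24 and 20 in implanted cGAMP. All levels below are in CPM, the UMIs of a gene scaled to a total of 1000000 a cell, averaged over the member cells of a library, so the levels of spontaneous tumours rest on 7 to 9 cells a library. The libraries held 654 to 2025 cells and 7863535 to 16506086 UMIs, and the median depth was 2014 UMIs a cell for replicate 1 of implanted cGAMP, the shallowest, and between 8803.5 and 13148 elsewhere. Member cells had a median of 13941 UMIs, against 11740 in the 6092 Prox1-negative ECs (Pecam1 and Cdh5 detected, Prox1 not) and 13381 in the 174 Lyve1-positive Prox1 cells used for comparison. The median of the members was 4915 and 14451 UMIs in spontaneous PBS and 18534 and 25455 in spontaneous cGAMP. It was 13657.5 and 13946 in implanted PBS and 8363 and 20505 in implanted cGAMP. Values of 0 in replicate 1 of spontaneous PBS thus rest on 7 shallow cells, with at most 9757 UMIs each. Any 2 libraries shared 0 to 3 cell barcodes, 1 member barcode also occurred in another library, and 8 members were among the 5% of cells with most UMIs of their library. No doublet caller was run.

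Prox1 (chr1:190118035-190170714, minus strand, GRCm38) ranged from 363 CPM in replicate 1 of spontaneous cGAMP to 945 CPM in replicate 1 of implanted PBS, and 26 of the 165 members held a single Prox1 UMI. Fxyd6 (chr9:45370185-45396159, plus strand), a regulator of the sodium pump, ranged from 505 CPM in replicate 1 of implanted cGAMP to 1043 CPM in replicate 1 of implanted PBS. Nsg1, an endosomal trafficking gene, ranged from 91.5 to 614 CPM, and Sema3d, a secreted semaphorin, from 147 to 419 CPM. Dtx1, a ubiquitin ligase of the Notch pathway, lay between 54.1 and 313 CPM, the membrane mucin gene Parm1 between 50.2 and 367 CPM, and Tbx1, a transcription factor needed for lymphatic growth, between 89.4 and 335 CPM. None of these genes was at 0 in any library, which the rule by itself does not guarantee for a single gene of the 6. As values used by the rule they were not tested between cell classes.

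The number of the 6 genes per member fell into separate ranges. A UMI of 4, 5 or 6 of the genes was found in 21, 39 and 69 members, 129 in all, while 5 members had 3 and 31 had 2. Just outside the rule, 77 cells that met every other condition had 1 of the 6 genes and 108 had none. Genes outside the rule were unevenly spread over these cells. The adhesive matrix protein gene Mmrn1 was detected in 92.3% of members with 4 to 6 of the genes, 19.4% of members with 2, 10.4% of the cells with 1 and 4.63% of those with none, and Pdpn, the lymphatic glycoprotein podoplanin, in 79.1% of the first and 29.0% of the second class. The blood vessel receptor gene Flt1 ran the other way, with 12.4%, 58.1%, 83.1% and 83.3% of the cells in the same order. Plvap, also on the blood vessel list, did not separate the classes, with 94.6%, 83.9%, 90.9% and 88.9%. Fgl2 was detected in 87.6% and Flt4 in 91.5% of members with 4 to 6 of the genes. In members with 2 they were detected in 58.1% and 41.9%. The lymphatic genes named here were thus detected most often in the members with 4 or more of the genes. The 31 members with 2 carried each of them less often, and Mmrn1 and Pdpn in few cells. Of these 31, 13 were in replicate 1 of implanted cGAMP, 8 and 3 in the implanted PBS replicates 2 and 1, 4 in replicate 2 of spontaneous PBS, 2 and 1 in the spontaneous cGAMP replicates 2 and 1, and 0 in the other libraries. The main counts below are given also for a stricter rule that asks for at least 3 of the 6 genes.

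**Figure D1:**
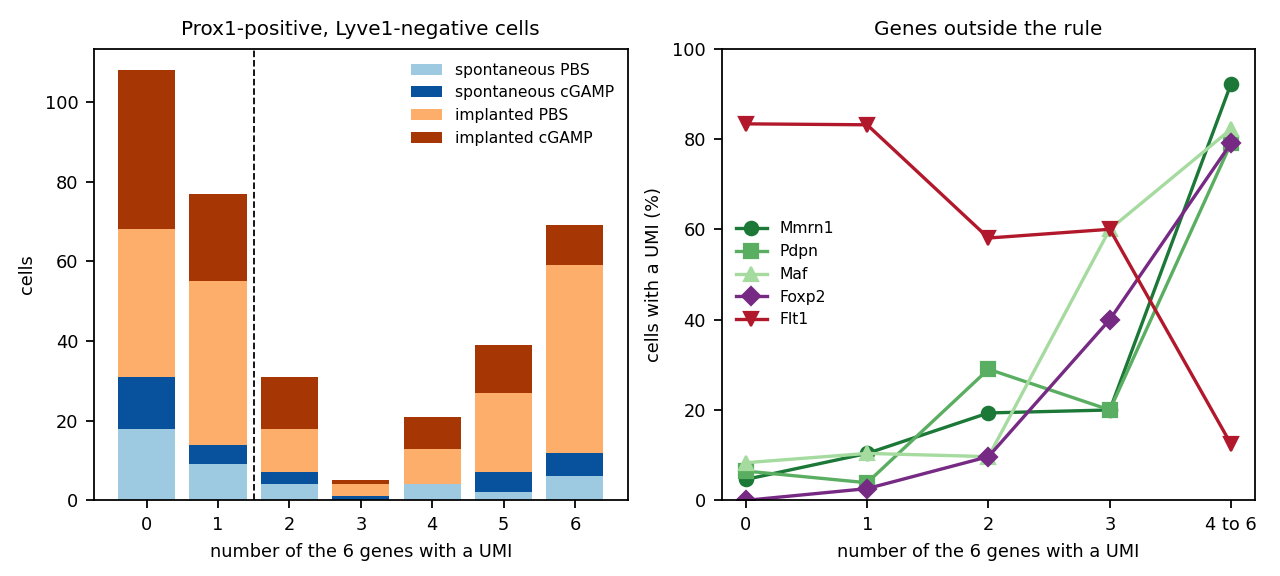
Left, the number of Prox1-positive Lyve1-negative cells (vertical axis, cells) by how many of the 6 genes had a UMI, with the dashed line at the limit of the rule. Right, the percentage of those cells with a UMI of genes outside the rule: lymphatic genes were detected in most cells with 4 to 6 of the genes, such as Mmrn1 in 92.3%, while Flt1 was detected in 83.3% of the cells with none.

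The Lyve1 condition (gene at chr7:110850607-110863239, minus strand) separated more distinct cells: among cells that met all other conditions, 7 had 1 Lyve1 UMI, 21 had 2 to 5 and 105 had 6 or more. On the sinus side, 8 members had a UMI of 2 of the 6 excluded genes, and 4 cells that met all else had 3.

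Set beside Prox1-negative ECs, the members were led by lymphatic and valve genes. Since the cells were chosen by 14 of their genes, and other genes may move with these, the levels are given as a description, with no test. Mmrn1 averaged 585.5 CPM over the libraries in members against 5.41 CPM in Prox1-negative ECs. It was 927 and 490.0 CPM in the spontaneous PBS libraries, 776 and 391 CPM in spontaneous cGAMP, 876 and 696 CPM in implanted PBS, and 188 and 341 CPM in implanted cGAMP. Thus the lowest member library lay above the highest Prox1-negative library, at 29.5 CPM. The other leading genes included the transcription factor genes Maf, Foxp2, Meis2 and Foxc2, the cell polarity gene Pard6g, the secreted or surface proteins Fgl2, Cp (ceruloplasmin), Nts (neurotensin), Olfm1, Pdpn, Sema3a, Abi3bp and Clca3a1, the tight junction gene Cldn11, and Slc45a3, Tc2n, Gpm6a, Pkhd1l1 and Ifi27l2a. Foxc2, the valve transcription factor, was 150 and 134 CPM in spontaneous PBS, 76.2 and 170 CPM in spontaneous cGAMP, 117 and 146 CPM in implanted PBS, and 144 and 198 CPM in implanted cGAMP. Every member library was above the range of 3.73 to 7.88 CPM in Prox1-negative ECs.

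The list of collecting-vessel and valve genes leaned the same way, though not as a whole. Of its 13 genes, 7 were higher in members than in Prox1-negative ECs in all 8 libraries and 0 were lower in all. The others did not keep 1 direction in every library. The share of all genes with such an order is not given here, so this count and those of the other marker lists describe the lists only. In single cells, 125 of 165 members carried a UMI of at least 4 of the 8 valve genes Foxc2, Cldn11, Foxp2, Gja4, Itga9, Nfatc1, Cd24a and Gata2, 19 carried all 8 and 5 carried none. Of the 14 blood vessel genes, 11 were lower in members than in Prox1-negative ECs in every library, and their summed level was 2346 to 4283 CPM against 9315 to 11810 CPM. The 3 others were therefore not lower in at least 1 library, and the summed blood vessel level never reached 0.

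Against the Lyve1-positive Prox1 cells of the same libraries, the 10 leading genes on the lower side had log2 ratios of -5.00 to -2.48. Ccl21a averaged 641 CPM over the member libraries and 20830 CPM over the Lyve1-positive ones. Detection of it was rare, in 3 of 7, 3 of 9, 1 of 7, 2 of 8, 9 of 48, 7 of 42, 5 of 24 and 8 of 20 members in the order of the groups above, and a single cell held 90.0% of its UMIs in replicate 2 of implanted PBS. Reln, the secreted protein reelin, averaged 26.2 against 358 CPM, and Gpx3, an extracellular glutathione peroxidase, 7.97 against 251 CPM. The scavenging chemokine receptor gene Ackr2, the pentraxin gene Ptx3, the mannose receptor gene Mrc1, the ion channel genes Scn3a and Piezo2, Ablim3 and Itga1 completed the 10 lowest genes. Of the 7 capillary genes outside the rule, 5 were lower in members in every library, and of 13 pan-lymphatic genes 8 were. Lyve1 itself chose the cells on both sides of this comparison, so these differences describe the split.

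Other genes were higher in members than in Lyve1-positive cells. Plat, the tissue plasminogen activator gene, averaged 464 against 77.4 CPM, the orphan nuclear receptor gene Nr4a2 127 against 18.7 CPM, and Fbxl7, Enc1, Gxylt2, Mfap2, Rprml, Cystm1 and Lsr followed. Of the 13 valve genes, 2 were higher in members than in Lyve1-positive cells in all libraries and 0 were lower in all.

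Several of the contrasts were also seen at equal depth, with each cell thinned to 2000 UMIs, which kept 158 of the members and left out 7 shallower ones. Mmrn1 was then detected in 48.7% of members, 0.382% of Prox1-negative ECs and 76.1% of Lyve1-positive cells (76.4% of members without thinning). Foxp2 was detected in 29.1%, 0.164% and 5.03% (64.8% of members without thinning), and Cldn11 in 14.6%, 0.182% and 5.66% (34.5%). Ccl21a was detected in 12.7%, 0.837% and 81.8% (23.0%), and Flt1 in 13.9%, 72.8% and 8.18% (22.4%). Foxc2 differed less between the lymphatic classes, with 17.1% of members and 11.3% of Lyve1-positive cells, against 1.31% of Prox1-negative ECs. The valve gene Gja4 and the blood vessel gene Plvap hardly separated members from Prox1-negative ECs. Gja4 was detected in 25.3% of members, 22.9% of Prox1-negative ECs and 11.9% of Lyve1-positive cells, and Plvap in 77.8%, 82.8% and 49.1%.

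**Figure D2:**
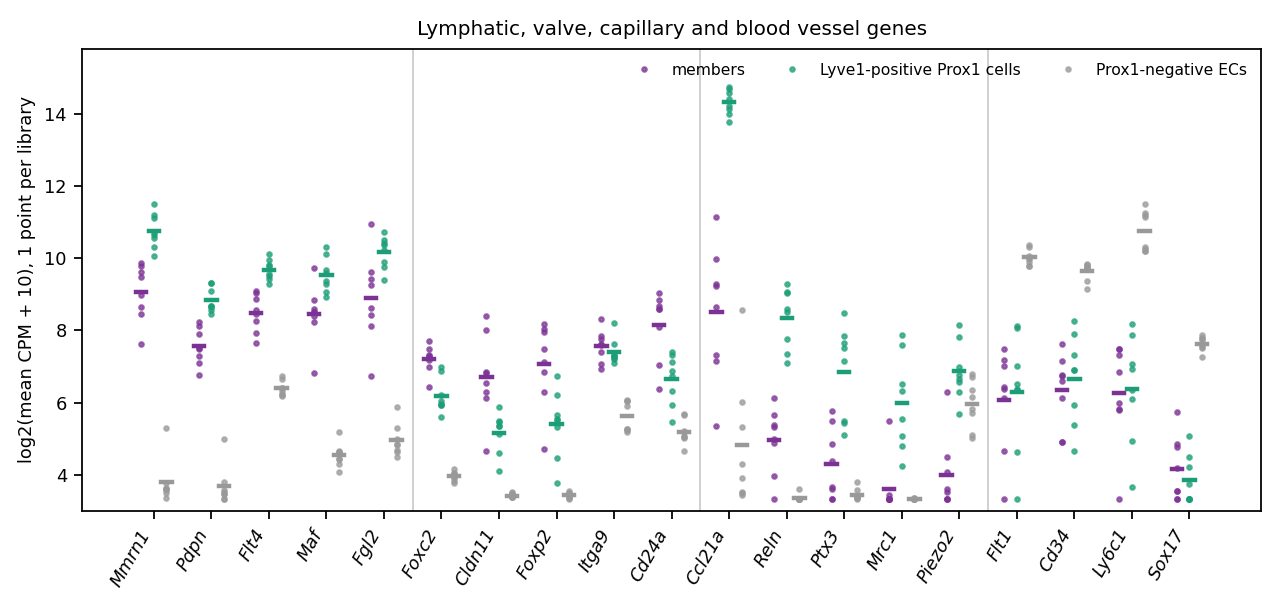
Levels of lymphatic, valve, capillary and blood vessel genes on the log2 scale of mean CPM plus 10, with 1 point for each library and cell class (members, Lyve1-positive Prox1 cells, Prox1-negative ECs) and a dash at the mean over libraries. Mmrn1 separates both lymphatic classes from Prox1-negative ECs, Ccl21a is high in the Lyve1-positive cells, and Flt1 is high in the Prox1-negative ECs.

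Markers of other cell types were low in the members but did not stay at 0. The 11 epithelial tumour genes summed to 180 to 1167 CPM, highest in replicate 1 of implanted cGAMP, where Epcam reached 164 CPM, against 176.5 to 1042 CPM in Prox1-negative ECs. The 12 immune genes summed to 5.65 to 360.0 CPM, again highest in that library, with the pan-leukocyte gene Ptprc at 0 in 5 of the 8 libraries and at most 13.6 CPM. The 10 mural genes summed to 7.93 to 163 CPM with Cspg4 at 0 in every library, and the platelet and red cell genes to 0 to 6.2 CPM with Hbb-bs at 0 in every library. The 16 dissociation and immediate early genes summed to 10040 to 28610 CPM, highest in replicate 1 of spontaneous PBS, against 6584 to 11900 CPM in Prox1-negative ECs.

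As a share of Pecam1-positive cells, the members made up 0.725% (Wilson 95% interval 0.352 to 1.49%) and 1.498% (0.790 to 2.82%) in spontaneous PBS, 0.896% (0.411 to 1.94%) and 1.01% (0.490 to 2.07%) in spontaneous cGAMP, 4.80% (3.64 to 6.31%) and 3.83% (2.85 to 5.14%) in implanted PBS, and 1.24% (0.797 to 1.93%) and 3.31% (2.15 to 5.06%) in implanted cGAMP. These intervals cover counting error only, and the sort sets what the share is of. Both implanted PBS libraries lay above all 4 spontaneous ones, and replicate 1 of implanted cGAMP lay within their range. Implanted libraries averaged 3.30% and spontaneous ones 1.03%, a difference of 2.26 percentage points (two-sided exact permutation test within treatments, p = 0.0556, which is the smallest p that this design allows). cGAMP libraries averaged 1.61% and PBS libraries 2.71%, a difference of -1.10 percentage points (two-sided exact permutation test within models, p = 0.167). Without replicate 1 of implanted cGAMP, the shallowest library, this difference was -0.581 percentage points (exact permutation p = 0.333). With at least 3 of the 6 genes it was -0.895 percentage points (exact permutation p = 0.611), and the difference between the models was 2.10 percentage points (exact permutation p = 0.167).

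Among the 298 Prox1-positive cells that met the conditions on the other genes whatever their Lyve1, a base chosen after seeing the data, the members were 53.8% and 37.5% in spontaneous PBS, 31.8% and 36.4% in spontaneous cGAMP, 81.4% and 85.7% in implanted PBS, and 36.4% and 46.5% in implanted cGAMP. Every PBS library was above the cGAMP libraries of its own model. The mean difference, cGAMP minus PBS, was -26.8 percentage points (two-sided exact permutation test, p = 0.0556, the smallest possible). Lyve1 detection in Prox1-negative ECs was higher in the cGAMP libraries of each model: a Lyve1 UMI was found in 0.235% and 0.761% of Prox1-negative ECs in spontaneous PBS, 2.58% and 1.13% in spontaneous cGAMP, 0.928% and 0.743% in implanted PBS, and 7.81% and 7.88% in implanted cGAMP. Its part in the share of members was not tested.

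**Figure D3:**
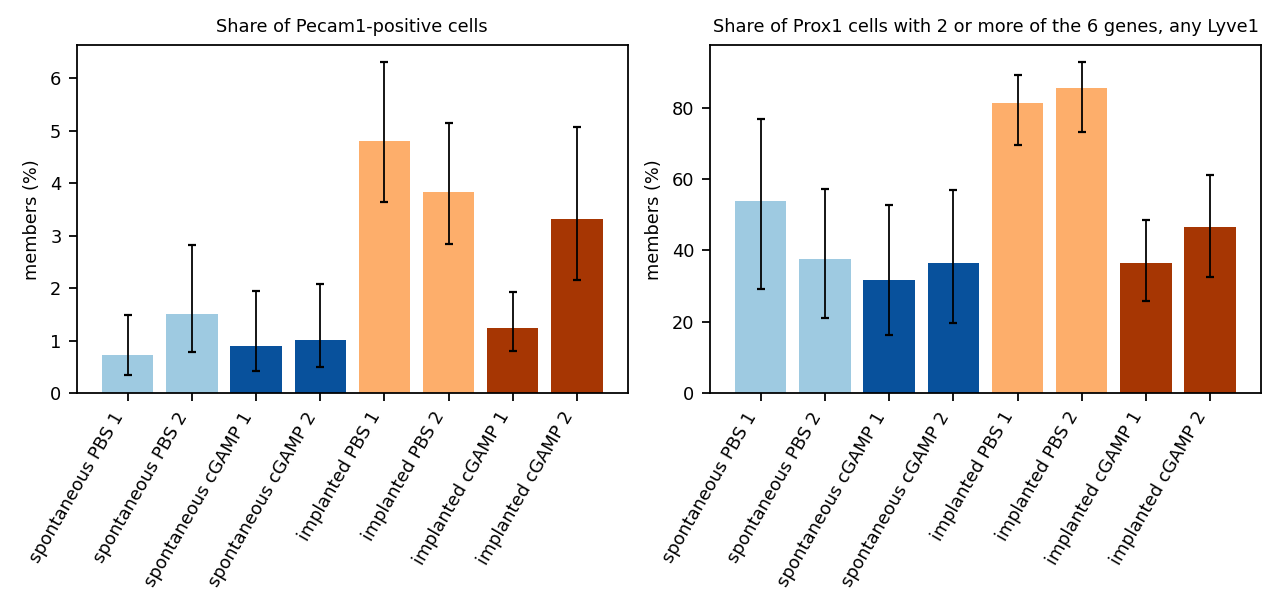
Share of member cells (vertical axes, %) in each library, with Wilson 95% intervals as bars, among Pecam1-positive cells on the left and among Prox1-positive cells of any Lyve1 level on the right. The 2 implanted PBS libraries are highest on both panels, at 4.80% and 3.83% on the left.

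The treatment label was not part of the rule, although the Lyve1 condition selected cells by a gene whose detection differed with treatment, as shown above. The effect of cGAMP on the members was tested between libraries, with limma on log2 of the mean CPM plus 10 and Benjamini-Hochberg adjustment over the 7828 genes that reached 20 CPM in 2 or more libraries. Averaged over both models, 98 genes (1.25% of those tested) were higher and 21 (0.268%) lower after cGAMP at an adjusted p under 0.05. The median log2 difference of all genes was -0.02. Of 27 tested interferon genes 21 rose and 0 fell, with a list median of 2.83, and of 26 tested interferon-gamma and antigen presentation genes 15 rose and 0 fell, with a median of 1.57. Under the stricter rule 77 genes were higher and 16 lower, and 20 and 9 of the genes of these lists rose.

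Ccl5, a chemokine for T cells and other leukocytes, rose most. It was at 0 in both spontaneous PBS libraries and at 4249 and 6933 CPM in spontaneous cGAMP, and at 2.15 and 0 CPM in implanted PBS and 5561 and 2184 CPM in implanted cGAMP. All 4 cGAMP libraries thus stood more than 1000 CPM above every PBS library, with a fitted mean log2 difference of 8.70 ± 0.32 (SE, 2 libraries in each of 4 groups, limma adjusted p = 1.44e-07). A fold cannot be formed against 0, but with a floor of 3 UMIs over both spontaneous PBS libraries Ccl5 was at least 470.3-fold higher in spontaneous cGAMP. In implanted tumours its ratio was 8043 from 4220 UMIs against 1 (exact 95% counting interval 1443 to 317700). Fold bounds and ratios of this kind, here and below, come from UMIs pooled over the members of both libraries of a group. They can differ from ratios of the mean CPM. Their intervals cover counting error only and not the spread between cells or libraries. The rise was uneven over cells, since 1 cell held 66.4% of the Ccl5 UMIs in replicate 1 of spontaneous cGAMP and another 43.1% in replicate 1 of implanted cGAMP, although 7 of 7 and 14 of 24 members had at least 1 UMI there.

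Antiviral effectors and their regulators rose in the mean of both models. Rsad2, which encodes viperin, was at 0 in both spontaneous PBS libraries, 450.2 and 292.5 CPM in spontaneous cGAMP, 0 and 5.15 CPM in implanted PBS and 585.5 and 670.5 CPM in implanted cGAMP (mean log2 difference 5.46 ± 0.31, adjusted p = 4.63e-06). Irf7, the transcription factor that amplifies interferon production, was 0 and 9.13 CPM in spontaneous PBS, 1246 and 1060 CPM in spontaneous cGAMP, 61.8 and 75.5 CPM in implanted PBS, and 880.2 and 935 CPM in implanted cGAMP (4.97 ± 0.27, adjusted p = 3.56e-06). The PBS level of Irf7 already differed between the models, as shown further below. Isg15, the ubiquitin-like modifier, was 62.1 and 85.7 CPM in spontaneous PBS, 2321 and 1877 CPM in spontaneous cGAMP, 320.2 and 371 CPM in implanted PBS, and 2062 and 1920 CPM in implanted cGAMP (3.58 ± 0.19, adjusted p = 3.56e-06). The cGAMP levels of Isg15 in the 2 models overlapped. Bst2, the membrane restriction factor tetherin (3.68), Ifit3 (3.78), Usp18 (3.50), Oasl1 (3.64) and Zbp1 (3.21) rose as well, and Ifit3 and Ifit3b are near-identical genes whose reads may have been divided between them. Ifit2, Ddx58, Dhx58, Stat2 and Parp14 did not pass, with log2 differences of 1.22 for Ddx58 to 2.71 for Ifit2 and adjusted p of 0.143 and 0.173 for these.

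In spontaneous cGAMP the 2 called chemokine genes of the interferon-gamma list came from few cells. Cxcl10 and Cxcl9 were each detected in 1 of 7 and 3 of 8 members there. In implanted cGAMP a UMI of Cxcl10 was found in 13 of 24 and 8 of 20 members, and 1 of Cxcl9 in 7 of 24 and 6 of 20. Cxcl10, a ligand of the T cell receptor CXCR3, was at 0 in both spontaneous PBS libraries, 112 and 114 CPM in spontaneous cGAMP, 7.69 and 0 CPM in implanted PBS, and 481 and 285 CPM in implanted cGAMP (4.23 by the fit, adjusted p = 0.000115). In replicate 1 of spontaneous cGAMP all Cxcl10 UMIs belonged to 1 of the 7 cells, and under the stricter rule Cxcl10 was not called (2.46, adjusted p = 0.18). Cxcl9, another CXCR3 ligand, was at 0 and 3.69 CPM in spontaneous PBS, 1352 (from 1 cell) and 44.1 CPM in spontaneous cGAMP, 10.1 and 0.974 CPM in implanted PBS, and 107 and 97.0 CPM in implanted cGAMP (3.72, adjusted p = 0.0435). Prox1-negative ECs held Cxcl9 at 1858 and 938 CPM in the same implanted PBS libraries.

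Antigen presentation genes rose by smaller amounts from higher levels. B2m, the light chain of MHC class I, was 1568 and 907 CPM in spontaneous PBS, 5749 and 4884 CPM in spontaneous cGAMP, 2830 and 2269 CPM in implanted PBS, and 4532 and 5936 CPM in implanted cGAMP (1.59 ± 0.20, adjusted p = 0.00191). The heavy chain genes H2-K1 (1.41) and H2-D1 (1.24), the peptide transporter genes Tap1 (1.92) and Tap2 (1.61), Tapbp (1.42) and the immunoproteasome genes Psmb8 (1.91), Psmb9 (1.19) and Psmb10 (1.51) rose with it. The class II genes H2-Aa (2.35, adjusted p = 0.0852), H2-Ab1 (2.34, adjusted p = 0.0762) and Cd74 (2.73, adjusted p = 0.114) did not pass. Ly6a, the surface antigen Sca-1, was 0 and 27.4 CPM in spontaneous PBS, 1327 and 687 CPM in spontaneous cGAMP, 286 and 165 CPM in implanted PBS, and 1567 and 977.5 CPM in implanted cGAMP (4.05, adjusted p = 0.00044).

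Leaving out 1 library moved the number of called genes in this mean response from 119 to 552 and 224 without replicates 2 and 1 of spontaneous PBS, 71 without replicate 1 of spontaneous cGAMP, 77 and 61 without replicates 1 and 2 of implanted PBS, and 48 and 55 without replicates 1 and 2 of implanted cGAMP. Between 15 and 25 of the 27 interferon genes rose in each of these fits. The count for the interferon-gamma list rested more on single libraries: it was 6 and 5 without replicates 1 and 2 of implanted cGAMP, 7 without replicate 2 of implanted PBS, 7 and 10 without replicates 1 and 2 of spontaneous cGAMP, and between 15 and 22 in the other fits. The fit without replicate 1 of implanted cGAMP is the one without the shallowest library.

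**Figure D4:**
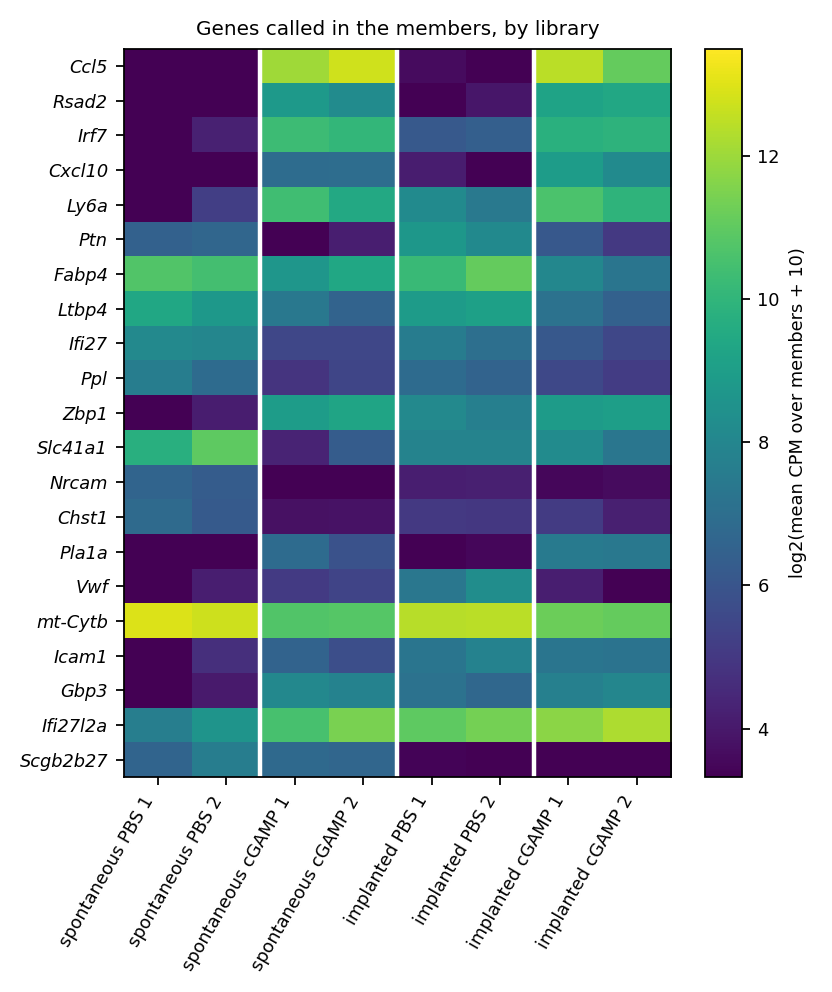
Levels of called genes in the member cells of each library, as colour on the log2 scale of mean CPM plus 10, with libraries in columns and genes in rows. Ccl5, Rsad2, Irf7 and Ly6a are higher in the 4 cGAMP libraries than in the PBS libraries of the same model, while Ptn, Ltbp4 and Ifi27 are lower.

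The promoter stretches of several raised genes carried the letters GAAANNGAAA, the core of the interferon-stimulated response element read by interferon-activated transcription factors. They are shown since the called genes moved together. The stretches below are 30 bases each, on the strand of the gene, taken from RefSeq windows of 250 bases before to 50 bases after a gene start (GRCm38.p6), and capitals mark the match, which reads TTTCNNTTTC where it lies on the opposite strand.
Rsad2, chr12:26456553-26456582, minus strand: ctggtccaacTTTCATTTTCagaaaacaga
Cxcl10, chr5:92349083-92349112, minus strand: tcacgctttgGAAAGTGAAActtacctcac
Ifit3, chr19:34583397-34583426, plus strand: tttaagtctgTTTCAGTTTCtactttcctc
Bst2, chr8:71537583-71537612, minus strand: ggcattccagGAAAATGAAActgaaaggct
Isg15, chr4:156200865-156200894, minus strand: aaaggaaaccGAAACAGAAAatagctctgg

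These stretches lie 120 bases before the start of Rsad2, 213 before that of Cxcl10, 122 before Ifit3, 130 before Bst2 and 66 before Isg15. No stretch could be shown for Ccl5, Irf7 or Ly6a, which rose more than Ifit3, Bst2 and Isg15. Of the 98 genes raised in the members, 76 had a window under their symbol, and 23 of these (30.3%) held the motif on either strand. Of all 27025 genes with a window 1079 (3.99%) held it, and of the 6180 tested genes with a window 251 (4.06%) did. Among the 21 genes that fell, 7 had a window and 0 held the motif. A match of letters is a description of the sequence and not a measured binding site.

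Genes lower after cGAMP included growth factor and matrix genes. Ptn, the heparin-binding growth factor pleiotrophin, was 79.7 and 91.7 CPM in spontaneous PBS, 0 and 8.31 CPM in spontaneous cGAMP, 407 and 277 CPM in implanted PBS, and 59.1 and 22.6 CPM in implanted cGAMP. It fell by 2.84 on the log2 scale (SE 0.37, adjusted p = 0.00215), with a lower level in both cGAMP libraries of each model. Ltbp4, a binding protein of latent TGF-beta in elastic matrix, was 652 and 420.3 CPM in spontaneous PBS, 160.5 and 85.5 CPM in spontaneous cGAMP, 467 and 545 CPM in implanted PBS, and 133 and 79.0 CPM in implanted cGAMP, and fell by 2.13 (adjusted p = 0.00253). Ifi27 was 265.5 and 245 CPM in spontaneous PBS, 35.2 and 34.3 CPM in spontaneous cGAMP, 181 and 121 CPM in implanted PBS, and 60.2 and 34.3 CPM in implanted cGAMP, and fell by 2.04 (adjusted p = 0.00377). Its neighbour Ifi27l2a was higher after cGAMP in every library of each model, from 195.5 and 380.4 to 1495 and 2777 CPM in spontaneous and from 2009 and 2677 to 3409 and 4863 CPM in implanted tumours. Ppl, the desmosome-linked periplakin gene, fell by 1.75 (adjusted p = 0.0222) from 84.9 to 186 CPM in PBS libraries to 19.2 to 35.8 CPM in cGAMP libraries, a call lost under 8 of 18 alternatives (highest adjusted p of 0.438).

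Fabp4, a fatty acid binding protein gene of capillary ECs, fell by 2.28 (adjusted p = 0.0013), a call that was lost under the stricter rule. Its levels were 1705 and 1406 CPM in spontaneous PBS, 396 and 662 CPM in spontaneous cGAMP, 1174 and 2172 CPM in implanted PBS, and 254 and 145 CPM in implanted cGAMP. Members with 2 of the genes held 100% of its UMIs in replicate 2 of spontaneous PBS and 73.0% in replicate 2 of implanted PBS, and 0% in replicate 1 of spontaneous PBS. Under the stricter rule the mean log2 difference was 0.15 (adjusted p = 0.979), with 1705 and 0 CPM in spontaneous PBS and 439 and 877 CPM in spontaneous cGAMP, while implanted tumours still held 806 and 588 CPM after PBS and 196 and 145 CPM after cGAMP, a difference of -1.97 that was not called (adjusted p = 1.0).

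Mitochondrially encoded transcripts were also lower: 9 of the 13 such genes fell, with mt-Cytb at 8034 and 6774 CPM in spontaneous PBS, 1676 and 1794 CPM in spontaneous cGAMP, 5438 and 5635 CPM in implanted PBS, and 2379 and 2174 CPM in implanted cGAMP (a fall by 1.68, adjusted p = 0.000115). The mitochondrial share of all UMIs was 7.05% and 6.45% in spontaneous PBS members, 2.52% and 2.17% in spontaneous cGAMP, 5.09% and 5.03% in implanted PBS, and 3.50% and 2.97% in implanted cGAMP, and the share in Prox1-negative ECs was 4.42% to 4.75% in PBS and 3.01% to 3.61% in cGAMP libraries. The share enters every cell's total, and its part in the other results was not tested.

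In gene groups tied to LEC function few or no genes were called, beside 1.25% of all tested genes called higher and 0.268% lower. Of 14 tested lymphangiogenic receptor and ligand genes 1 rose: Angpt2, a ligand of the receptor Tie2, was 114 and 95.9 CPM in spontaneous PBS, 285 and 808 CPM in spontaneous cGAMP, 150.5 and 136 CPM in implanted PBS, and 1005 and 469.8 CPM in implanted cGAMP (2.15 ± 0.34, adjusted p = 0.00848). The list median was -0.46, and the receptor genes Flt4 (-0.07, adjusted p = 0.968), Kdr (-0.90, adjusted p = 0.0801) and Nrp2 (-1.14, adjusted p = 0.0954) did not pass. None of 11 Notch genes (median -0.62), 15 semaphorin and guidance genes (median -0.30), 20 junction and matrix genes (median -0.11), 12 valve genes (median -0.57), 4 capillary genes (median -1.13) or 10 cell cycle genes (median -0.95) was called in limma. Lists this short can hold 0 calls at the share of all genes, so these counts do not show that the lists were unchanged. Fitted values above 0 were found for 1 of the 11 Notch, 4 of the 15 guidance, 10 of the 20 junction and 4 of the 12 valve genes. They were found for 0 of the 4 capillary, 2 of the 10 cell cycle and 3 of the 14 lymphangiogenic genes. The Notch and guidance lists include Dtx1 and Sema3d, which the rule used. Of 12 lymphatic chemokine and receptor genes 2 rose, Ccl5 and Csf1 (2.08, adjusted p = 0.0297), the latter a macrophage growth factor. Of 18 TNF and NF-kB targets 2 rose, Vcam1 (2.35, adjusted p = 0.00377) and Csf1, and of 13 apoptosis genes 1 rose, the necroptosis effector Mlkl (1.91, adjusted p = 0.0246). Of 16 dissociation genes 0 were called.

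In spontaneous tumours alone, 70 genes (0.894% of those tested) were higher and 17 (0.217%) lower after cGAMP. Of the interferon list 19 rose (median 3.64) and of the interferon-gamma list 11 (median 2.52). The called genes with the largest rise were Ccl5 (9.09), Irf7 (6.39, from 2 UMIs in the PBS libraries, a ratio of pooled UMIs of 155 with a counting interval of 42.6 to 1282), Ly6a (5.64), Zbp1 (5.36) and Rsad2 (5.22, at least 34.1-fold higher by the floor of 3 UMIs). Zbp1, a sensor of unusual nucleic acids, was at 0 and 7.69 CPM in PBS and 477.5 and 603 CPM in cGAMP libraries. The largest falls were those of Slc41a1, a magnesium transporter gene (-5.04, adjusted p = 0.00155), Nrcam (-3.11), Ptn (-2.82), Chst1 (-2.70) and Ifi27 (-2.57). The calls of Nrcam, Ptn, Chst1 and Ifi27 were lost under 8 of 14, 9 of 18, 13 of 17 and 2 of 18 alternatives. Slc41a1 was 836 and 2021 CPM in PBS and 10.4 and 67.8 CPM in cGAMP libraries, but single cells held 89.7% and 61.3% of its PBS UMIs. The number of called genes, 87, became 830 and 201 without replicates 2 and 1 of spontaneous PBS, and 26 and 49 without replicates 1 and 2 of spontaneous cGAMP, where 9 and 15 interferon genes and 3 and 5 interferon-gamma genes rose. Under the stricter rule 84 genes were called, and 17 and 10 genes of these lists rose. Without replicates 1 and 2 of spontaneous PBS, 20 and 16 interferon-gamma genes rose.

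In implanted tumours alone, 8 genes (0.102%) were higher and 3 (0.0383%) lower, and 9 of these 11 were also called in spontaneous tumours, which share the estimate of the spread. Of the interferon list 5 rose (median 2.32) and of the interferon-gamma list 1 (median 1.02), and all 27 and 26 fitted values were above 0. The largest rises were in Ccl5 (8.31, adjusted p = 9.77e-06), Rsad2 (5.69, adjusted p = 0.000226), Cxcl10 (4.84, adjusted p = 0.00293), Pla1a (4.06, adjusted p = 0.0126) and Irf7 (3.55, adjusted p = 0.00293). Pla1a, a secreted phospholipase gene, was at 0 and 1.39 CPM in PBS and 176 and 161 CPM in cGAMP libraries. Its ratio of pooled UMIs was 229, from 120 UMIs against 1 (counting interval 40.3 to 9107). The falls were those of Vwf, the von Willebrand factor gene (-4.08, adjusted p = 0.0244), Fabp4 (-2.99) and mt-Cytb (-1.28). The mt-Cytb call was lost under 13 of 19 alternatives, among them the stricter rule (adjusted p = 0.106), and the Fabp4 call under 7 of 19. The calls of Cxcl10, Pla1a and Irf7 were lost under 6, 7 and 3 of 19 alternatives. Vwf fell from 152 and 310.4 CPM to 8.08 and 0 CPM, yet under the stricter rule its PBS levels were 46.5 and 14.9 CPM, too low to be tested. Under the stricter rule 5 genes were called, 3 of them in the interferon list. The count of 11 became 44 and 42 without replicates 1 and 2 of spontaneous PBS, 5 without either replicate of implanted PBS, and 2 without either replicate of implanted cGAMP, and between 1 and 14 interferon genes rose in the fits without 1 library.

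The difference between the 2 responses was tested directly and no gene passed (0.0% of 7828 in limma, with 448 genes at an unadjusted p under 0.05, 1 gene called when cells with most UMIs were left out, and 10 called when Lyve1 was left out of the rule). The smallest adjusted p belonged to Zbp1, whose response was smaller by 4.31 on the log2 scale in implanted tumours (adjusted p = 0.0551). Ifitm3, a membrane restriction factor gene, had a difference of -2.03 (adjusted p = 0.112), with levels of 1783 and 1409 CPM in spontaneous PBS, 13000 and 10290 CPM in spontaneous cGAMP, 5170 and 4534 CPM in implanted PBS, and 8342 and 8914 CPM in implanted cGAMP. Slc41a1 had a difference of 4.94 (adjusted p = 0.193), with 294 and 150.0 CPM in implanted cGAMP and 225 and 227 CPM in implanted PBS libraries. Without replicate 2 or 1 of spontaneous PBS, 103 and 17 genes passed. A larger number of called genes in spontaneous than in implanted tumours is thus not a tested difference.

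After PBS, the members of implanted tumours already held more of several interferon-regulated transcripts than those of spontaneous tumours. In limma 9 genes (0.115%) were higher and 1 (0.0128%) lower in implanted PBS. Zbp1 was 268 and 198 CPM in implanted PBS against 0 and 7.69 CPM in spontaneous PBS (4.17 ± 0.38, adjusted p = 0.00248). Gbp3, a guanylate-binding protein gene, was 132 and 96.6 CPM against 0 and 6.58 CPM (3.25, adjusted p = 0.0199), and Ifi27l2a 2009 and 2677 CPM against 195.5 and 380.4 CPM (3.04). In each of these genes the 2 groups of libraries were apart, as the rule for naming called genes required. Icam1, the leukocyte adhesion gene, was 146 and 219 CPM against 0 and 15.9 CPM (3.56, adjusted p = 0.0351), and Vwf 152 and 310.4 CPM against 0 and 8.03 CPM (4.09, adjusted p = 0.0348). The interferon list had 3 genes called higher, Isg15, Irf7 and Zbp1, and a median of 1.003 against 0.13 for all genes. Summed over its 29 genes, members held 2327 and 2071 CPM in implanted PBS and 651 and 899 CPM in spontaneous PBS. Prox1-negative ECs held 2308 and 1616 CPM against 715 and 849 CPM, so this difference was not particular to the members. The gene called lower was Scgb2b27, a secretoglobin, with 87.7 and 191 CPM in spontaneous PBS and 0.73 and 0 CPM in implanted PBS, and Prox1-negative ECs of the same libraries held it at 14.2, 242, 2.49 and 1.44 CPM.

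These PBS differences depended strongly on single libraries. The 10 called genes became 400 and 45 without replicates 2 and 1 of spontaneous PBS, 1 without either replicate of spontaneous cGAMP or without replicate 2 of implanted PBS, and 0 without replicate 1 of implanted PBS or either replicate of implanted cGAMP. Under the stricter rule 3 genes were called, 1 of them in the interferon list. Of the genes named here, Zbp1 lost its call under 4 of 18 alternatives and the others under 9 to 12.

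Each library also held Prox1-negative ECs, so the response of the members could be set against theirs within the library. No gene passed (0.0% of 8262 in limma, 629 at an unadjusted p under 0.05, smallest adjusted p of 0.208, and 2 called with no filter on low values, 1 with a filter of 100 CPM and 1 with Lyve1 left out of the rule). The gene nearest to the threshold was Pla1a, whose mean rise was larger in members by 2.42 ± 0.30 on the log2 scale (adjusted p = 0.208). In members it rose by 3.06 and 4.06 in spontaneous and implanted tumours, and in Prox1-negative ECs by 1.28 and 0.99, where it reached at most 22.6 CPM. Mfsd10 (1.94, adjusted p = 0.593) and Tspan6 (1.57, adjusted p = 0.605) followed on the higher side, and Nrcam (-1.85, adjusted p = 0.547), Ptx3 (-1.70, adjusted p = 0.605) and Ifit1bl1 (-1.59, adjusted p = 0.605) on the lower side. Isg15 rose by 4.66 and 2.50 in members and by 4.16 and 3.22 in Prox1-negative ECs, a difference of -0.11 ± 0.31. Irf7 rose by 6.39 and 3.55 in members and 5.43 and 3.97 in Prox1-negative ECs, a difference of 0.27 ± 0.33. Of 29 interferon genes 0 were called in either direction, with a median difference of -0.06 against 0.06 for all genes. Values that miss the threshold do not show that the 2 cell classes respond alike.

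**Figure D5:**
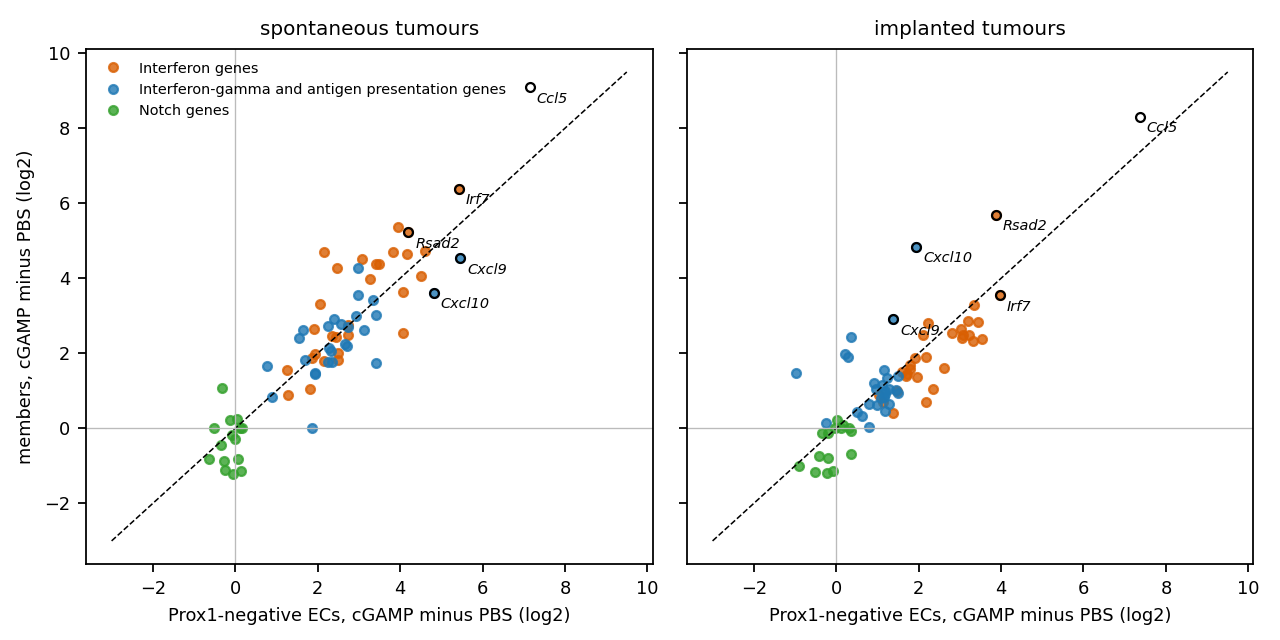
cGAMP minus PBS on the log2 scale in member cells (vertical axis) against Prox1-negative ECs of the same libraries (horizontal axis), for spontaneous tumours on the left and implanted tumours on the right, with 1 point for each interferon, interferon-gamma and Notch gene of the lists and for Ccl5, and the dashed line marking equal values. Interferon genes lie around the line, such as Isg15 at 4.66 in members and 4.16 in Prox1-negative ECs of spontaneous tumours.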

How the data were processed

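Single-cell libraries (10x Genomics 3′ v3) were processed by the authors with Cell Ranger 3.0.0 (mm10) and Seurat 3.1.1. Per the methods of the study, they kept cells with 500 genes or more and up to 10% mitochondrial transcripts, and genes seen in 3 cells or more, and the lowest gene number here was 501. The deposited values are natural log values, ln(1 + UMIs × 10000 / total UMIs of the cell), and UMIs were worked back from them, 100% whole within a tolerance of 0.01. No count model was used, since the design, set when log values were expected, named limma on log2 mean CPM. All numeric columns belonged to a library.

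Members were found by the rule in the report, and members and gene lists were chosen with earlier results of these data known. Linear CPM were averaged over members per library, and limma 3.58.1 in R 4.3.3 (trended eBayes) was run on log2(mean + 10 CPM), with 1 mean per group over all 8 libraries, each with at least 5 members, genes reaching 20 CPM in 2 libraries, Benjamini-Hochberg adjustment and a threshold of 0.05. As the methods and labels do not tell whether each library is 1 mouse, p-values measure the spread between libraries, which may be technical. Named genes were the 5 called with the largest change per direction, with at least 50 CPM in the higher group and no overlap of libraries, the 3 of smallest p where none was called, and genes of the lists. Some list genes shown with all values were picked for their role. Leading genes were the 20 (against Prox1-negative ECs) or 10 (against Lyve1-positive cells) with the largest ratio and 1 direction in every library. Shares were compared with exact permutation tests over libraries (Python 3.11.15, scipy 1.17.1). Depth limits low genes: 1 UMI in a library of 7 members is a large CPM step. Gene positions are those of GENCODE (vM21), and promoter windows those of RefSeq (GRCm38.p6). The fit was tested on simulated data. Alternatives changed the pseudocount, filter, scaling, rule, replicate block and libraries used. Some genes that met the naming rule are not reported here.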

Additional observations from a re-analysis of the deposited data

Results flagged for a closer look

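In 3 genes named in the comparison of the responses, every cGAMP library of one model was above the PBS libraries of that model and every cGAMP library of the other model was below its own, although the test of the difference missed the threshold in each. The values are the difference of the log2 responses, implanted minus spontaneous. It was 1.69 for the nuclear RNA Malat1 (adjusted p = 0.183), which stood at 36000 and 28420 CPM in spontaneous PBS, 13980 and 19220 CPM in spontaneous cGAMP, 21300 and 22470 CPM in implanted PBS and 35940 and 36430 CPM in implanted cGAMP. It was 3.24 for Cystm1 (adjusted p = 0.708), at 150.3 and 75.5, 9.31 and 31.1, 24.5 and 27.7, and 76.6 and 67.1 CPM in the same order of groups. It was -5.57 for Vwf (adjusted p = 0.112), at 0 and 8.03, 23.6 and 32.4, 152 and 310.4, and 8.08 and 0 CPM, a gene that after PBS in implanted tumours was largely carried by members with 2 of the 6 genes. Vwf was lower after cGAMP in Prox1-negative ECs of both models, from 229 to 303 CPM in PBS to 53.5 to 104 CPM in cGAMP libraries. No group held 4 or more libraries, so single libraries were not screened as outlying.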

How the results depend on the processing

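Every called gene of the mean response that could be fitted kept its direction under every alternative except Fabp4, at 0.15 under the stricter rule. The numbers of called genes moved more. In the order spontaneous (87), implanted (11) and mean response (119), they were 57, 4 and 69 with a pseudocount of 1 CPM, 43, 5 and 48 with no filter on low values, and 274, 86 and 378 with Lyve1 left out of the rule, which was chosen after seeing the data and adds cells. The implanted count was also 5 under the stricter rule, 7 without the 5% of cells with most UMIs and 71 from libraries with at least 10 members, where the other comparisons could not be fitted. The count for implanted against spontaneous PBS (10) was 0 with a pseudocount of 1 CPM and 6 with 50 CPM, 1 with no filter and 6 with a filter of 100 CPM, 3 from summed UMIs, 3 under the stricter rule and 46 with Lyve1 left out. The difference of the responses (0) gave 1 gene without the 5% of cells with most UMIs and 10 with Lyve1 left out, and the comparison with Prox1-negative ECs (0) gave 2, 1 and 1 with no filter, a filter of 100 CPM and Lyve1 left out. Leaving out 1 library gave 26 to 830 genes in spontaneous tumours, 2 to 44 in implanted tumours, 48 to 552 in the mean response, 0 to 103 in the difference, 0 to 400 between the models after PBS and 0 against Prox1-negative ECs. The cause was not tested. Over 46 pairs of named gene and comparison and 814 alternatives, 650 kept their call or its absence, 145 lost it (80 when a library was left out), 18 gained it and 1 reversed.

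The replicate numbers did not pair the libraries: same-numbered libraries had correlations of deviations of -0.08 to 0.05. With the replicate block the counts were 92, 10, 122, 0, 12 and 0 for spontaneous, implanted, mean, difference, models after PBS and Prox1-negative ECs.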
